A study of Rattus norvegicus with 8 samples.

Results

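Dio2, the gene of the type 2 deiodinase, was examined in the developing rat pineal gland together with the thyroid hormone receptor genes Thra and Thrb and with Hr and Klf9, both known to be induced by thyroid hormone in brain. All rows with these gene symbols were taken, which gave 6 transcripts of 5 genes among 16932 transcripts of 16462 gene symbols. Thra had 2 transcripts and each other gene had 1. All libraries came from pineal glands of Sprague-Dawley rats kept in 14 h of light and 10 h of dark, and the labels name no allele, transgene or drug. Glands were taken on embryonic day 21 (E21) or on postnatal day 5 (P5), 20 (P20) or 40 (P40), in the light at zeitgeber time 7 (mid-day) or in the dark at zeitgeber time 19 (mid-night). Glands of each age and time were pooled into 1 library. The mid-day pools held 13 (E21), 17 (P5), 13 (P20) and 3 (P40) animals, and the mid-night pools 15, 19, 10 and 3.

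Thyroid hormone leaves the thyroid mostly as thyroxine, which has little activity at the receptors. Cells take it up through membrane transporters, and the type 2 deiodinase inside the cell removes an outer-ring iodine to make triiodothyronine, the active form. The type 3 deiodinase inactivates both, and the type 1 enzyme can do either. The receptors encoded by Thra and Thrb bind DNA as partners of retinoid X receptors, repress target genes with corepressors when no hormone is bound, and activate them with coactivators when it is. In the adult rat pineal gland Dio2 is known as a gene driven at night by noradrenaline from sympathetic nerves, acting through cyclic AMP.

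Levels are FPKM (fragments mapped to a transcript, scaled to its length and to the mapped fragments of the library) as deposited by the authors. Differences were tested with limma on log2(FPKM + 1), a scale that shrinks differences between values around or below 1 FPKM. A transcript was called at a Benjamini-Hochberg adjusted p under 0.05 over the 9960 transcripts that reached 1 FPKM in at least 2 libraries. Each group is a single library, so scatter between pools of the same age and time was not measured. The p-values rest on how far the libraries depart from the fitted age and night terms, combined with a prior from all transcripts tested. Night against day at a single age carries no test. Where libraries of some ages are said to lie above, below or apart from others, this describes the printed values. The share of all transcripts that separate in the same way was not counted. All 6 transcripts passed the filter. Dio2 passed it only through the P20 and P40 mid-night libraries and Thrb only through both P40 libraries, so passing is not independent of those groups.

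The promoters are shown because Dio2 was the only one of the 5 genes called for night in the older glands, and Thrb and Klf9 are its contrast: Thrb rose with age from a very low level, and Klf9 differed little between day and night. Each sequence runs 5′ to 3′ from 250 bases before to 50 after the annotated start, is taken from RefSeq on build GRCr8, and carries in capitals any match to the motifs searched.
Dio2, chr6:115410545-115410844, minus strand: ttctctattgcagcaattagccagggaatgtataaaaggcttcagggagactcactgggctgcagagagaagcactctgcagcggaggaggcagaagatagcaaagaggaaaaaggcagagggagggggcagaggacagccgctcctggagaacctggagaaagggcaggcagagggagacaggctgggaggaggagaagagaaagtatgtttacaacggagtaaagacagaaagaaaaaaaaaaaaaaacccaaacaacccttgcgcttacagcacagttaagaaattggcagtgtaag
Thrb, chr15:10461397-10461696, minus strand: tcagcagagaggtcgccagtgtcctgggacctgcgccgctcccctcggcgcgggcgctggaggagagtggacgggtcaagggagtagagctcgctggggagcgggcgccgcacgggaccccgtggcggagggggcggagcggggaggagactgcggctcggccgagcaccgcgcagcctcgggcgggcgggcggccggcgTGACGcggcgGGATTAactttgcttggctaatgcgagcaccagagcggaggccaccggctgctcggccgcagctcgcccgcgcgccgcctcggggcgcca
Klf9, chr1:230126396-230126695, plus strand: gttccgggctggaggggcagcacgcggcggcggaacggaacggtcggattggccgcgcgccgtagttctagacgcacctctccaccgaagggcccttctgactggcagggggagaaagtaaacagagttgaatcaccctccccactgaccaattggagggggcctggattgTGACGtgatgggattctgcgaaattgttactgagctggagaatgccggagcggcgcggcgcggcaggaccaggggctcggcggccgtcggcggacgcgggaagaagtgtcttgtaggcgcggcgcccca

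The motifs were searched on both strands in all 33469 promoters of the RefSeq table. They were the cyclic AMP response element TGACGTCA (in 1.83% of promoters) and its overlapping shorter form TGACG (21.2%), and the thyroid hormone response element DR4, a direct repeat of AGGTCA with 4 bases between its copies (0.00598%), and a single AGGTCA, which overlaps it (16.2%). The E-box CACGTG (6.42%) and the Crx and Otx motif GGATTA (7.17%) completed the search. The Dio2 window held none of these, and its G and C content was 49.0%. The Thrb window held TGACG with its first base at -50 and GGATTA at -40 from the start, and 76.0% G and C. The Klf9 window held TGACG at -79, and 65.3% G and C. Both windows listed for Thra (79.7% and 46.3% G and C) held none, and no promoter was matched for Hr. A match, or the lack of one, describes letters in these windows only. The windows rest on the annotated start, and sequence outside them was not searched. That the Dio2 window held none therefore does not show that the gene lacks such a site.

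Dio2 (NM_031720, chr6:114307758-114317563 on build rn4) was at 0.444 FPKM by day and 0.325 FPKM by night at E21, and at 0.325 and 0.573 FPKM at P5. At P20 it was at 0.316 FPKM by day and 4.87 FPKM by night, and at P40 at 0.268 FPKM by day and 31.0 FPKM by night. The 4 mid-day levels thus stayed between 0.268 and 0.444 FPKM, and only the mid-night libraries of P20 and P40 stood above 1 FPKM. The night level was 0.732 times the day level at E21, 1.77 times at P5, 15.4 times at P20 and 116 times at P40. From P20 to P40 the mid-night level was 6.37 times higher and the mid-day level 0.847 times as high.

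**Figure D1:**
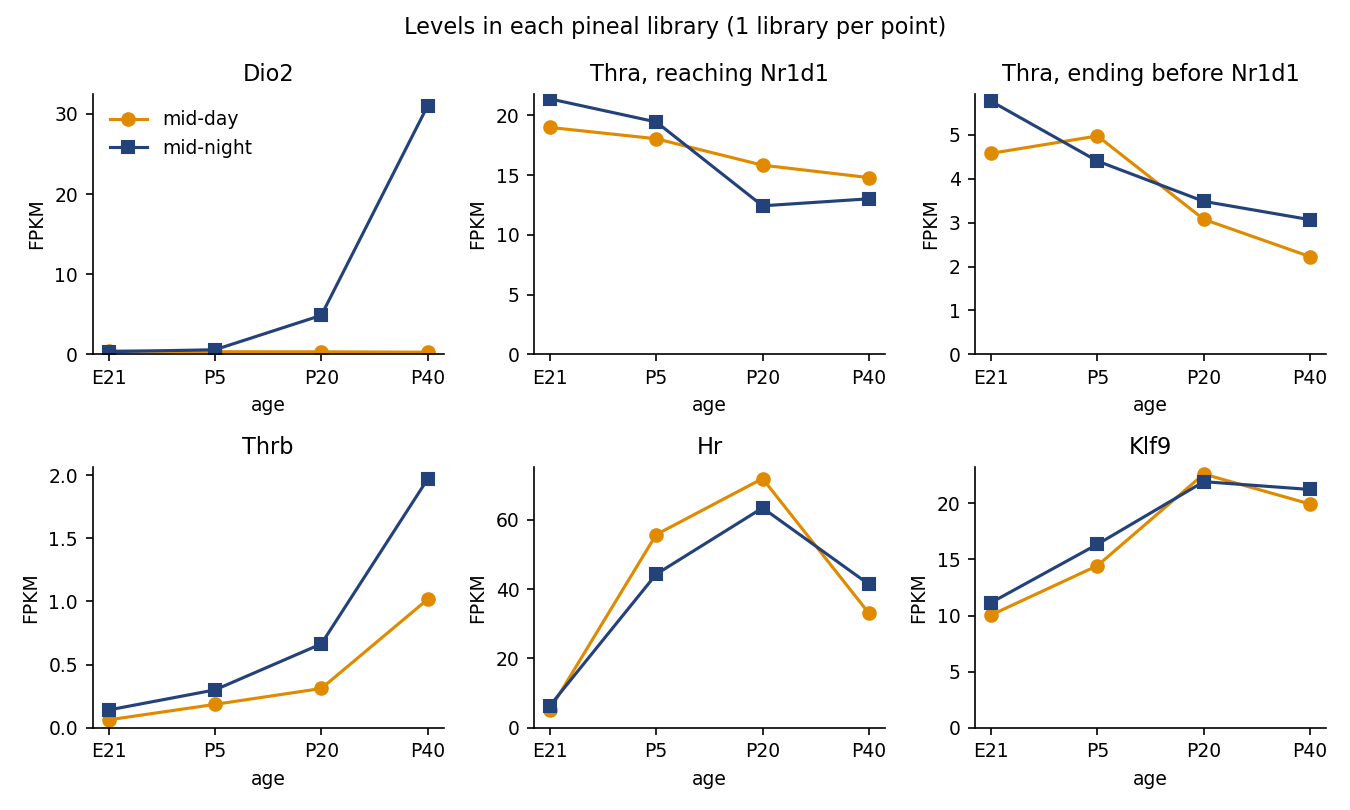
Level (FPKM, linear axes from 0) of each transcript against age, with 1 point per pooled library, circles for mid-day and squares for mid-night. Dio2 leaves the baseline only at mid-night of P20 (4.87) and P40 (31.0), Thrb climbs at both times, and Hr peaks at P20 (71.8 by day).

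In the fit with 1 night effect for E21 and P5 and another for P20 and P40, Dio2 was higher at night in the older glands by a log2 change of 3.41 ± 0.49 (SE; limma, adjusted p = 0.00965; higher in 2 of 2 ages). This effect ranked 15 from the top of 9960 transcripts. Dio2 entered these only through the P20 and P40 mid-night libraries, so neither its call nor its rank is independent of the filter. Dio2 was the only 1 of the 6 transcripts called, where 2.80% of all transcripts tested were called higher at night. In the younger glands the night effect of Dio2 was 0.06 ± 0.49 (adjusted p = 0.999), and none of the 6 transcripts was called by limma (0.0301% of all transcripts, and 0 of 6 at an unadjusted p under 0.05). The night effect of the older glands minus that of the younger was 3.35 ± 0.69 for Dio2, with an adjusted p of 0.0939 (unadjusted p = 0.00141). No transcript of the 5 genes was called for that difference by limma, where 0.753% of all transcripts were, and 1 of 6 had an unadjusted p under 0.05. Without the P20 mid-day library the difference was 4.60 (adjusted p = 0.00288), and without the P20 mid-night library its adjusted p was 0.00325. In both cases the older effect is the difference of the P40 pair alone, with its spread taken from the other libraries, so neither is a check on replicates.

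The Dio2 night call was lost with a pseudocount of 5 (1.83, adjusted p = 0.0539), with no filter (adjusted p = 0.102) and with a robust prior (adjusted p = 0.0902). Its direction held in all 17 alternatives that gave a value, from 1.83 to 4.99, and the call in 14. As measured by the smallest steps between values, the P20 mid-day library had 0.41 times and the P20 mid-night library 0.59 times the depth of the P40 mid-night library.

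**Figure D2:**
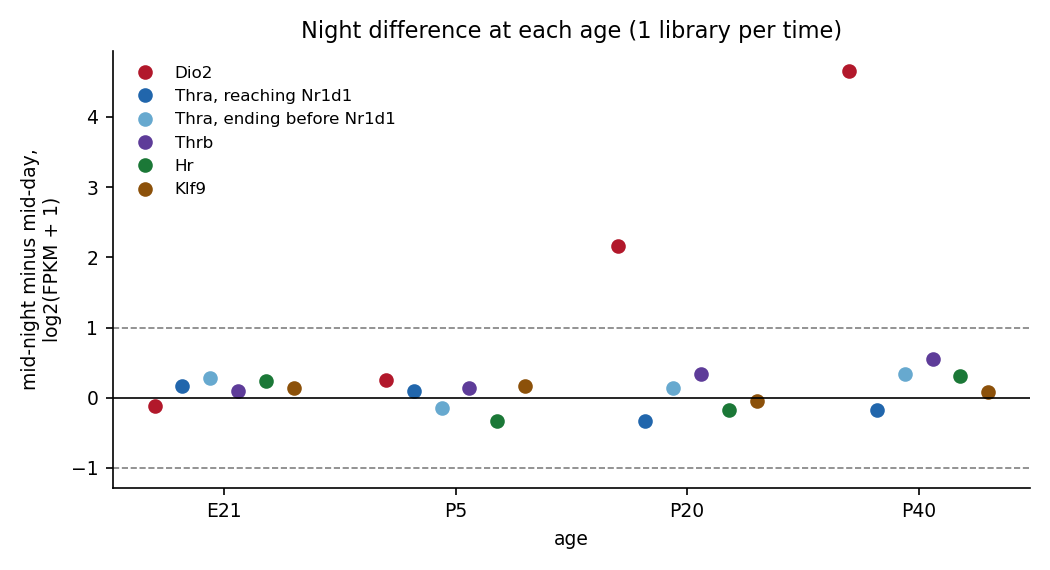
Mid-night minus mid-day level on the log2(FPKM + 1) scale for each transcript at each age, from 1 library per time, with dashed lines at a 2-fold difference. Only Dio2 at P20 and P40 lies beyond the dashed lines, at 2.16 and 4.66.

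At single ages, Dio2 at P20 (2.16 on the log2(FPKM + 1) scale) and at P40 (4.66) were the only cases of a member at least 2-fold apart, where 2.44% and 3.04% of transcripts were that far higher at night. At E21, where 0.783% of transcripts were at least 2-fold higher and 1.24% lower, and at P5 (1.55% higher and 0.301% lower), no member was that far apart. A night effect common to all 4 ages was called for no transcript at all by limma (0% of 9960, 1011 at an unadjusted p under 0.05). For Dio2 that effect was 1.73 ± 0.69 (adjusted p = 0.486; unadjusted p = 0.0366), and it was the only member with an unadjusted p under 0.05.

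Age alone did not pass for Dio2. The change from E21 to P40 was 2.20 ± 0.97 (limma, adjusted p = 0.104), in a fit where the night difference that grew with age entered the error. With a separate night effect for younger and older glands the same change had an adjusted p of 0.00754. Of the other deiodinase genes, Dio3 was listed at 0 in all 8 libraries, and Dio1 at 0.0291 FPKM in the E21 mid-day library and at 0 in the other 7.

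Aanat, the acetyltransferase that sets the nightly rhythm of melatonin synthesis, went from 6.21 FPKM at mid-day to 572 FPKM at mid-night at P20 and from 1.72 to 321 FPKM at P40. At P5 it was already at 153 FPKM by day and 225 FPKM by night, while Dio2 was at most 0.573 FPKM there. In the P20 and P40 libraries 0 of 9 choroid plexus, 0 of 6 astrocyte, 0 of 5 endothelial, 0 of 3 oligodendrocyte and 0 of 5 microglial markers tested were called for night by limma. Of all transcripts 2.80% were called higher at night there and 1.59% lower. At those shares, 0 calls in lists this short is no result about these cell types. Of the 6 pinealocyte markers 1 was called (Aanat), and of 4 genes tested from a list of neuron markers 1 was (Slc17a6, a glutamate transporter of synaptic vesicles). These 4 had means of 61.6 to 551 FPKM, whereas Gad1 and Gad2 of the same list stayed under 1 FPKM and were not tested. Whether the 4 come from pinealocytes or from other neurons was not tested. The summed astrocyte markers went from 134 to 106 FPKM from day to night at P20 and from 111 to 115 FPKM at P40. In bulk glands, fewer cells of a type and less RNA per cell cannot be told apart.

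The 5 transcripts of other genes with profiles most like that of Dio2, by Pearson correlation over the 8 libraries among 6520 transcripts with at least 5 FPKM in 2 libraries, were Ppp1r15a (r = 0.989), Glt8d3 (0.978), Errfi1 (0.978), B3gnt2 (0.973) and Bcar1 (0.969). Ppp1r15a, a phosphatase subunit of the stress response, was between 2.49 and 3.34 FPKM in the 6 libraries other than P20 and P40 mid-night, where it reached 6.08 and 17.4 FPKM. Errfi1, an inhibitor of epidermal growth factor receptors, reached 7.83 and 38.3 FPKM there and was at most 4.75 FPKM elsewhere. Like Dio2, each of the 5 was higher at P40 than at P20 at mid-night. The points share libraries and the high P40 mid-night value, so these correlations are a description.

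**Figure D3:**
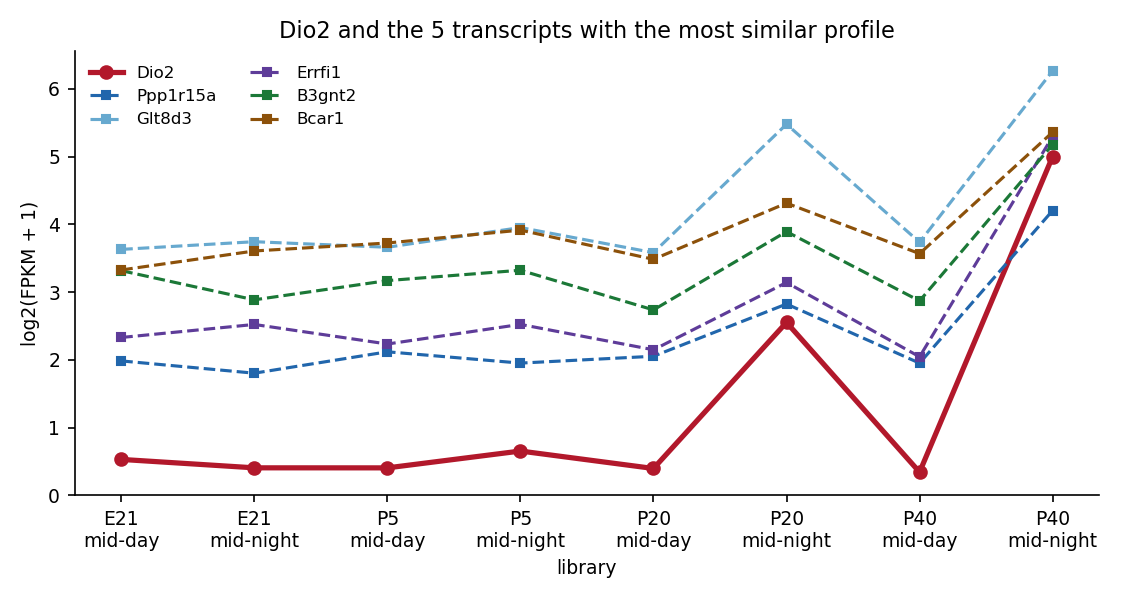
Level on the log2(FPKM + 1) scale of Dio2 and of the 5 transcripts most like it in each of the 8 libraries, with lines joining the libraries only to guide the eye. All 6 are highest at P40 mid-night and second highest at P20 mid-night, and Dio2 starts from the lowest level.

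Genes of thyroid hormone transport were called mostly at P5. Of 10 listed carrier and transporter genes 9 were found and 8 tested. Of these, 5 rose from E21 to P5 (limma, 8.29% of all transcripts higher), with a list median of 1.19 against -0.04 over all transcripts. This list was also chosen with earlier results of these data known. Slco1a5, an organic anion transporter, was at 0.374 FPKM by day and 0.957 by night at E21, and at 3.36 FPKM by day and 14.3 by night at P5. The later libraries were between 0.325 and 1.20 FPKM, so both P5 libraries were above all others. Slco1a5 rose by 2.32 ± 0.38 (limma, adjusted p = 0.00809) and then fell by 2.12 (adjusted p = 0.0198). It passed the filter only through both P5 libraries and the P40 mid-night library, so neither call is independent of the filter. Ttr, the carrier protein transthyretin, rose by 2.60 ± 0.62 (lost in 6 of 17 alternatives) and then fell by 3.62 (lost in 4 of 17). Of the 8 genes 3 were called lower from P5 to P20, a step with 5.99% of all transcripts called lower.

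Choroid plexus markers moved with these genes. Of the 9, which include Ttr, 8 rose from E21 to P5 and 9 fell from P5 to P20, and their sum was 17808 FPKM at P5 mid-night against 3024 FPKM at P5 mid-day and 498 to 1378 FPKM in the other libraries. Their part in the P5 values was not tested. Ttr alone was at 17323 FPKM at P5 mid-night, or 10.9% of all FPKM in that library, against at most 2.07% in any other. Without the P5 mid-night library, 2 of the 8 transport genes were called higher at P5 and none lower from P5 to P20, and without either E21 library 2 were called higher at P5.

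**Figure D4:**
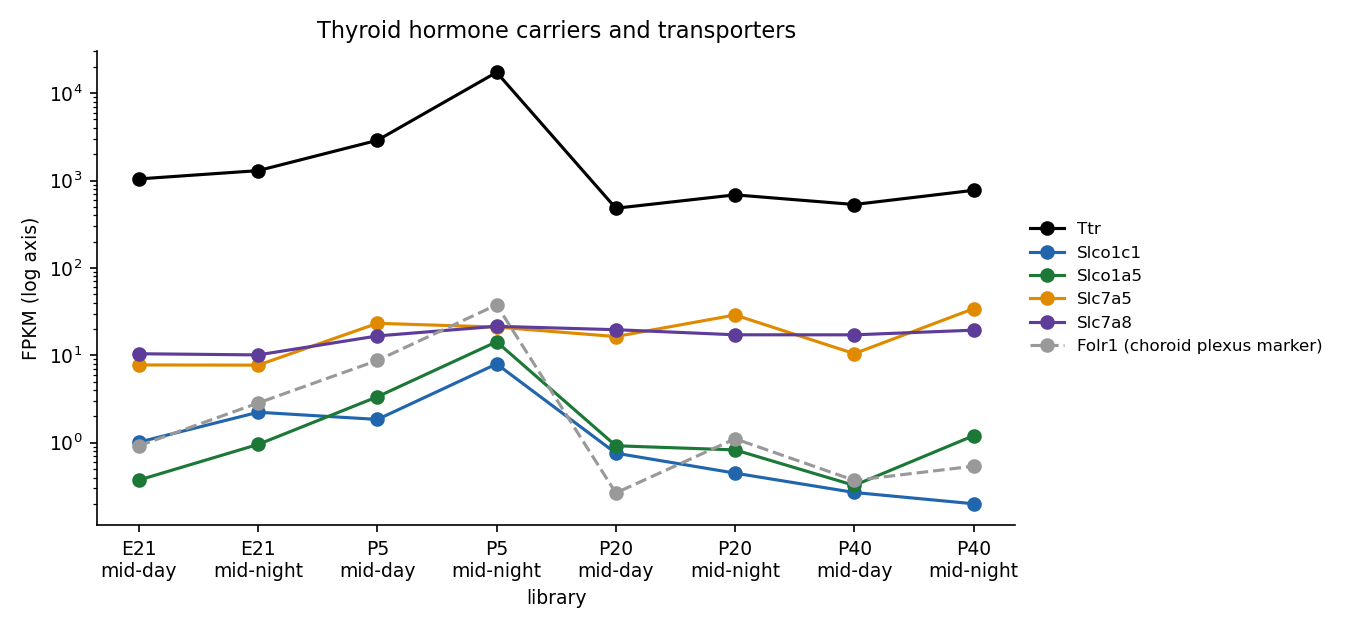
Level (FPKM, log axis) of 5 thyroid hormone carrier and transporter genes and of the choroid plexus marker Folr1 in each library. Ttr, Slco1a5, Slco1c1 and Folr1 share a maximum at P5 mid-night, whereas Slc7a5 is highest at P40 mid-night (34.2).

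The amino acid transporter genes followed other profiles. Slc7a5, which encodes LAT1, a carrier of large amino acids and thyroid hormone, was at 7.77 and 7.73 FPKM at E21 and 23.3 and 21.1 at P5. At P20 it went from 16.4 FPKM by day to 29.0 by night and at P40 from 10.5 to 34.2. It rose at night in the older glands by 1.20 ± 0.22 (limma, adjusted p = 0.0252), the only transport gene called for night, and the call held in 9 of 18 alternatives and was lost without either P40 library or any E21 or P5 library. Slc7a8, the related LAT2, rose from 10.4 and 10.1 FPKM at E21 to 17.2 and 19.4 FPKM at P40, by 0.77 ± 0.19 (adjusted p = 0.0132, lost in 3 of 18 alternatives). Slc7a5 was also higher at P40 than at E21 by 1.20 ± 0.39 (adjusted p = 0.0391; adjusted p = 0.325 without the P40 mid-night library). Slc3a2, the heavy chain that LAT1 and LAT2 share, was at 25.6 and 23.4 FPKM at E21 and 29.0 and 43.1 FPKM at P40 and was not called (0.51, adjusted p = 0.0780).

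Of the receptor genes Thrb rose with age, and 1 of 2 transcripts of Thra fell. Thrb (NM_012672, chr15:9282845-9369338 on rn4) was at 0.0630 FPKM by day and 0.141 FPKM by night at E21, and at 0.186 and 0.300 FPKM at P5. The P20 libraries were at 0.311 and 0.664 FPKM and the P40 libraries at 1.02 and 1.97 FPKM. The level was higher at each successive age at both times, and the P40 libraries did not overlap with any other. Thrb rose from E21 to P40 by 1.15 ± 0.19 (limma, adjusted p = 0.00237), a ratio of 16.1 at mid-day and 13.9 at mid-night. The call held in all 17 alternatives that gave a value, of which those without single libraries kept the transcripts tested. Thrb passed the filter only through both P40 libraries, so the call is not independent of the filter. The largest step on the log2(FPKM + 1) scale was the last, from P20 to P40, at 0.73 ± 0.19, which did not pass by limma (adjusted p = 0.364; unadjusted p = 0.00487). No transcript passed for P40 against P20 (0% of 9960 called, 669 at an unadjusted p under 0.05), and 2 members, Hr and Thrb, had an unadjusted p under 0.05.

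Thrb was also higher at mid-night than at mid-day at each of the 4 ages, by ratios of 2.24 at E21, 1.62 at P5, 2.13 at P20 and 1.94 at P40. In the older glands the night effect was 0.45 ± 0.17 (limma, adjusted p = 0.202; unadjusted p = 0.0327), which did not pass. At these levels, under 2 FPKM in every library, the log2(FPKM + 1) scale compresses such ratios. The ratios at E21 and P5 rest on levels of 0.0630 to 0.300 FPKM. The fragments behind them were not counted, so their error is not known.

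Thra, the more abundant receptor gene, has 2 transcripts in the deposited values. One (NM_031134, chr10:87526260-87542306 on rn4) reaches into Nr1d1, a clock gene on the opposite strand, and overlaps it by 1061 bases. The other (NM_001017960, chr10:87514443-87538101) ends 3144 bases short of it. The labels name no step that keeps the strand, so reads of Thra and Nr1d1 in the overlap cannot be told apart. Splitting of reads between both Thra transcripts adds further uncertainty to each.

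The transcript reaching Nr1d1 was at 19.0 and 21.4 FPKM at E21, and at 18.0 and 19.5 FPKM at P5. The P20 libraries were at 15.8 and 12.4 FPKM and the P40 libraries at 14.8 and 13.0 FPKM. All 4 older libraries were below all 4 younger ones. Its change from E21 to P40 was -0.51 ± 0.19 (limma, adjusted p = 0.0598), just short of the threshold, and passed with quantile normalization (adjusted p = 0.0388) and with night effects by stage (adjusted p = 0.0316). The transcript ending before Nr1d1 was at 4.58 and 5.77 FPKM at E21, and at 4.98 and 4.40 FPKM at P5. The P20 libraries were at 3.08 and 3.49 FPKM and the P40 libraries at 2.23 and 3.07 FPKM. All 4 older libraries were again below all 4 younger ones, and how many of all transcripts separate like this was not counted. The transcript fell by 0.76 from E21 to P40 (SE 0.19, limma, adjusted p = 0.0160), where 26.8% of all transcripts were called lower. That call was lost without either E21 or either P40 library (-0.88 to -0.64), with quantile normalization (adjusted p = 0.0771) and with median centring (adjusted p = 0.0546). Both transcripts summed, Thra changed by -0.58 from E21 to P40 (adjusted p = 0.0295).

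Over the same ages Nr1d1 rose from 5.42 and 5.68 FPKM at E21 to 26.8 and 33.8 FPKM at P40, by 2.25 ± 0.17 (limma, adjusted p = 9.87e-05). The transcript reaching it made up 78.1% to 86.9% of summed Thra in the 8 libraries. Summed Thra was 374 times Thrb at E21 mid-day and 192 times at E21 mid-night, against 16.7 and 8.17 times at P40. These ratios follow mostly the transcript reaching Nr1d1. The other Thra transcript was at 4.58 FPKM at E21 mid-day (Thrb 0.0630) and at 3.07 FPKM at P40 mid-night (Thrb 1.97). Whether each Thra transcript encodes a receptor that binds hormone was not examined, so the ratios are no balance of hormone-binding receptors. Thrb thus remained the minor receptor transcript at every age on the FPKM scale.

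Of the 3 retinoid X receptor genes, Rxrg rose and Rxra fell from E21 to P40. Rxrg was at 29.2 and 30.4 FPKM at E21 and 65.0 and 43.8 at P40 (0.82 ± 0.23; limma, adjusted p = 0.0228, lost in 4 of 18 alternatives), and Rxra at 7.11 and 8.65 FPKM and at 5.15 and 4.45 (-0.61 ± 0.21; adjusted p = 0.0471, lost in 10 of 18 alternatives). Without the E21 mid-day library the change of Rxrg was 0.51 (adjusted p = 0.163). At night in the older glands Rxrg went from 62.3 to 35.9 FPKM at P20 and from 65.0 to 43.8 at P40, a change of -0.67 ± 0.20 that did not pass (adjusted p = 0.109). Rxrb, at 8.80 and 9.33 FPKM at E21, was not called at P40 against E21 (adjusted p = 0.636) or for night (adjusted p = 0.0944).

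Hr (NM_024364, chr15:50957053-50972841 on rn4), which encodes hairless, a corepressor that binds thyroid hormone receptors, was at 5.22 and 6.38 FPKM at E21 and at 55.7 and 44.3 FPKM at P5. It was at 71.8 and 63.4 FPKM at P20 and at 33.0 and 41.4 FPKM at P40. Both E21 libraries were far below the other 6, and both P20 libraries were above all others. The rise to P5 was 10.7-fold by day and 6.94-fold by night, or 2.90 ± 0.21 on the log2 scale (limma, adjusted p = 0.000487), which ranked 35 from the top of 9960 transcripts. Hr was the only 1 of the 6 transcripts called at this step, at which 8.29% of all transcripts were called higher.

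From P5 to P20 Hr changed by 0.43 ± 0.21 (limma, adjusted p = 0.256), and no member was called at this step (7.02% of all transcripts were), with 1 of 6, Klf9, at an unadjusted p under 0.05. From P20 to P40 the levels of Hr were 0.460 times as high by day and 0.653 times by night (-0.85 ± 0.21; adjusted p = 0.345; unadjusted p = 0.00409). Over the whole span Hr rose by 2.49 ± 0.21 (adjusted p = 0.000147), and the P5 and P40 calls against E21 held in all alternatives run (17 and 18). Night against day gave 0.07 ± 0.22 in the older glands (adjusted p = 0.897).

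Nphs1, Morn1, Gnb5, Sptb and Tulp1 had the profiles most like that of Hr (r = 0.986 to 0.994 over 8 libraries). Tulp1, a photoreceptor gene, was at 19.6 and 26.2 FPKM at E21, 166 and 132 at P5, and 129 and 156 at P40. Of the pinealocyte markers 3 of 6 (Asmt, Lhx4 and Tph1) were also called higher at P5 than at E21 (8.29% of all transcripts). Aanat, Crx and Otx2 were not called, and Otx2 went from 274 and 267 FPKM at E21 to 173 and 176 at P5. The sum of all 6 was 765 to 814 FPKM at E21 and 2475 to 3774 FPKM in the later libraries. Tph1 alone was at 370 and 331 FPKM at E21 and at 2316 and 1740 at P5. The part of pinealocyte markers in the values of Hr was not tested. Of other corepressor genes, Hdac3, Tbl1x, Tbl1xr1 and Gps2 were not called by limma at P40 against E21.

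Klf9 (NM_057211, chr1:226420949-226446376 on rn4), a zinc finger transcription factor with a thyroid hormone response element known upstream of the gene, was at 10.1 and 11.2 FPKM at E21 and at 14.5 and 16.4 FPKM at P5. It was at 22.6 and 21.9 FPKM at P20 and at 19.9 and 21.2 FPKM at P40. Both E21 libraries were below both P5 libraries and these below all 4 older ones, which lay between 19.9 and 22.6 FPKM. Klf9 rose from E21 to P40 by 0.90 ± 0.16 (limma, adjusted p = 0.00375; 1.98-fold by day and 1.90-fold by night), and this held in all 18 alternatives. The single steps to P5 (0.50, adjusted p = 0.0793) and to P20 (0.51, adjusted p = 0.104) did not pass. Its night effect in the older glands was 0.02 ± 0.16 (adjusted p = 0.960).

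Ndufa5, Mlc1, Kif13a, Cbx7 and Mpzl2 had the profiles most like that of Klf9 (r = 0.985 to 0.995), and Ak3l1, Eya3, Rnf103 and Eif2ak1 were among those most like Thrb (0.961 to 0.982). For the Thra transcript reaching Nr1d1 they were Rhoq, Gab1, Lhfpl2, Nat9 and RGD1310587 (0.981 to 0.990), and for the other Ehmt1, Inpp4a, Dvl1, Wdr61 and Khdrbs1 (0.961 to 0.984). Of the KLF genes related to Klf9, 5 of 7 were tested and none rose: Klf6 fell by 0.75 and Klf7 by 0.62 from E21 to P40, calls that were lost in 9 and 7 of 17 alternatives. Klf10, also known as an early response gene, was at 5.42 and 10.1 FPKM at P20 and 6.04 and 10.3 at P40 (night effect 0.73 ± 0.17; limma, adjusted p = 0.0585).

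Across the 6 transcripts, the limma F test for age called 4, namely Hr, Klf9, Thrb and the Thra transcript ending before Nr1d1, where 36.4% of all transcripts were called. The last of these calls (adjusted p = 0.0433) was lost in 10 of 15 alternatives, and that of Thrb (adjusted p = 0.00851) was lost without the P40 mid-night library (adjusted p = 0.0790). For P40 against E21, 3 were called higher, where 16.1% of all transcripts were, and 1 lower, where 26.8% were. Over all transcripts the median change from E21 to P40 was -0.18, and the median night effect in the older glands -0.11.

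Of 18 genes listed as known thyroid hormone responses in brain or liver, 12 were tested, among them Hr and Klf9. From E21 to P40, 6 rose (Dbp, Hr, Klf9, Me1, Sema7a and Thrsp) and 3 fell (Reln, Stard4 and Ucp2), where 16.1% of all transcripts were called higher and 26.8% lower. The list median was 1.02 against -0.18 over all transcripts. This list holds 2 of the members and was chosen with earlier results of these data known, so its counts and median are a description. The 3 lower became 1 without the E21 mid-day library. Me1, malic enzyme, went from 3.68 and 3.99 FPKM to 9.84 and 10.3 (1.20 ± 0.18; limma, adjusted p = 0.00154), and Sema7a, a semaphorin, from 9.23 and 13.3 FPKM to 25.8 and 25.4 (1.14 ± 0.22; adjusted p = 0.00515). Thrsp, the lipogenic gene Spot 14, went from 0.0372 and 0.0292 to 1.44 and 1.35 FPKM, and passed the filter only through these P40 libraries, so its call is not independent of the filter. Dbp, a clock output factor, went from 12.2 and 9.35 to 19.3 and 42.5 FPKM (1.34; adjusted p = 0.0106, and 0.84, adjusted p = 0.0655, without the E21 mid-night library). Stard4, a cholesterol carrier, fell by 2.06 (adjusted p = 0.000149) and Reln, the matrix protein reelin, by 1.07 (adjusted p = 0.0219, lost in 4 of 17 alternatives).

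At P5, 4 of the 12 were called higher than at E21 (Hr, Me1, Reln and Sema7a; 8.29% of all transcripts) and Stard4 lower (6.84%). The 4 became 2 without the E21 mid-night or the P5 mid-night library, and the call for Reln was lost in 10 of 16 alternatives. From P5 to P20, Rasd2, Reln, Stard4 and Ucp2 were called lower (5.99% of all transcripts). None of these 4 was called without the P20 mid-night library and 1 without either P5 library, and the call for Stard4 was lost in 8 of 16 alternatives.

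At night in the older glands 2 of these 12 genes were called, 1 higher and 1 lower (2.80% of all transcripts were called higher and 1.59% lower). Cpt1a, the gate of fatty acids into mitochondria, went from 24.4 to 6.92 FPKM at P20 and from 25.5 to 10.5 FPKM at P40 (-1.44 ± 0.19; limma, adjusted p = 0.00718). At E21 it was at 12.2 and 14.4 FPKM and at P5 at 28.1 and 25.7 FPKM. Ucp2, a mitochondrial uncoupling protein, went from 9.82 to 17.3 FPKM at P20 and from 6.99 to 18.2 FPKM at P40 (1.01 ± 0.19; adjusted p = 0.0284), a call that was lost in 12 of 18 alternatives. Without either P20 library the call for Cpt1a was lost as well (-1.21; adjusted p = 0.0965 and 0.0995). Dbp was at 19.9 and 30.7 FPKM at P20 and at 19.3 and 42.5 at P40 and did not pass (0.85, adjusted p = 0.0735).

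**Figure D5:**
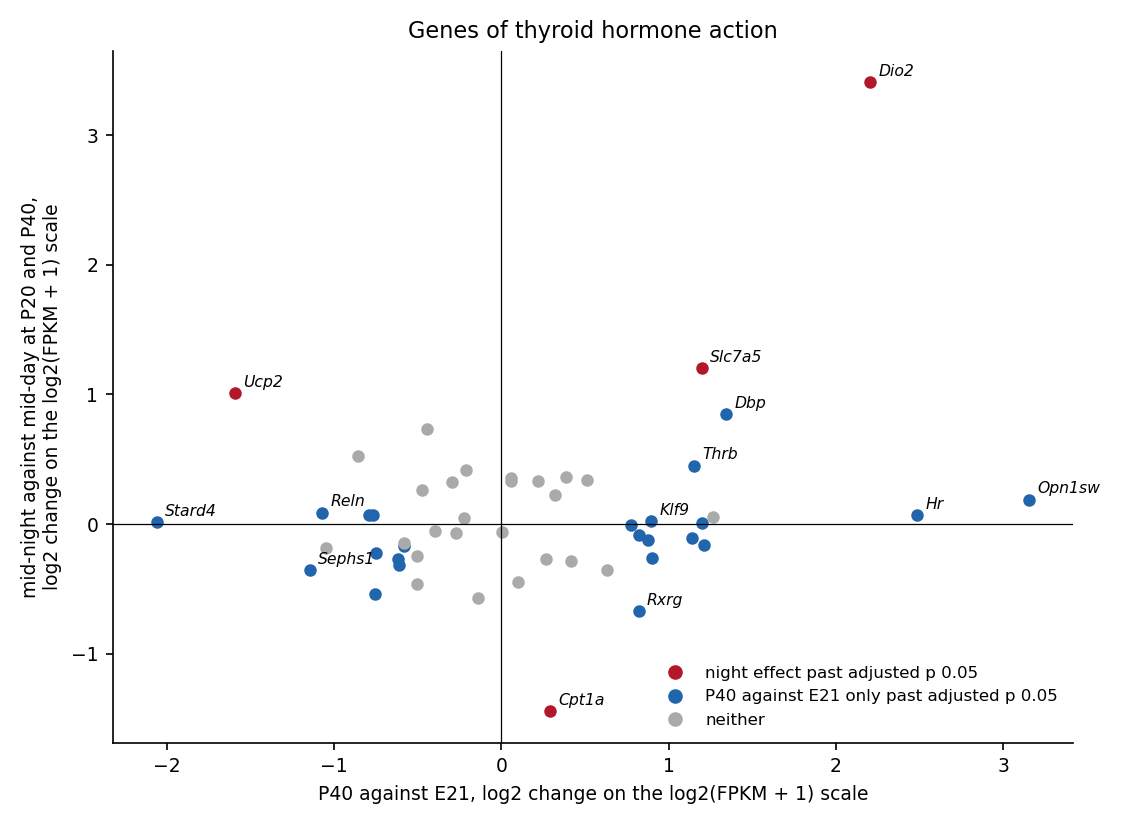
Log2 change from E21 to P40 against the night effect at P20 and P40 for each tested gene of the thyroid hormone lists, 1 point per gene, with the called genes farthest from 0 and selected others named. Dio2 stands apart at 3.41 on the night axis, and Hr (2.49) and Opn1sw (3.16) lie far right and near 0 for night.

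Genes that act with the receptors or on the deiodinase protein were tested in the same way, against 16.1% of all transcripts called higher and 26.8% lower from E21 to P40. Of 6 coactivator genes tested, Ncoa2 (0.88 ± 0.18) and Ppargc1a (0.82 ± 0.21) rose from E21 to P40 and Crebbp (-0.79 ± 0.17) and Med1 (-0.58 ± 0.17) fell, all by limma, and none was called for night. Leaving out single E21 or P40 libraries ended each of these 4 calls at least once (2 of 18 alternatives for Ncoa2 and Crebbp, 3 of 17 for Ppargc1a and 6 of 18 for Med1). Deiodinases contain selenocysteine, and of 4 genes tested for its synthesis and insertion Sephs1 fell by 1.15 (adjusted p = 0.00334), while Eefsec, the selenocysteine elongation factor, was higher at P5 than at E21 by 1.03 (adjusted p = 0.0287, lost in 4 of 17 alternatives). The type 2 enzyme is known to be degraded through ubiquitin. Of 5 such genes tested, Usp20, a deubiquitinase, rose by 0.90 (adjusted p = 0.0123, lost in 3 of 18 alternatives) and Ube2g2, a conjugating enzyme, fell by 0.75 (adjusted p = 0.0178, lost in 4 of 18) from E21 to P40. Wsb1, its ubiquitin ligase adaptor, did not pass in its more abundant transcript (-0.48, adjusted p = 0.127), and its other transcript fell by 1.23 (adjusted p = 0.00262). None of the genes of these 3 lists was called for night in the older glands. Of all transcripts 2.80% were called higher for night there and 1.59% lower, so 0 calls in short lists is near those shares.

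Opn1sw, the short-wavelength cone opsin whose retinal pattern depends on thyroid hormone, was at 2.43 and 4.15 FPKM at E21, and at 20.3 and 18.4 FPKM at P5. The P20 libraries were at 23.8 and 18.8 FPKM and the P40 libraries at 28.4 and 46.8 FPKM. It rose from E21 to P40 by 3.16 ± 0.27 (limma, adjusted p = 0.000154). Opn1mw, the medium-wavelength cone opsin, was at most 0.197 FPKM in any library and was not tested.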

How the data were processed

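Per the labels' protocols, 10 µg of total RNA per pool was enriched for polyadenylated RNA, primed with random primers, amplified by 16 cycles of PCR and read as paired ends of 101 bases, with 4 libraries to a lane. The submitters' processing notes name TopHat 1.3.1, Cufflinks 1.2.0 and build rn4, and the authors deposited 1 FPKM value for each RefSeq transcript. Read counts are not analysed here, so no counting intervals are given. Relative depth, from the smallest steps between values, was 0.41 to 1.0 of the deepest library, and 8598 to 9533 transcripts reached 1 FPKM. Gapdh lay at or under 0.524 FPKM in every library, and the reason was not tested. Whether other deposited levels at or near 0 share that reason was not tested either. Deposited starts count from 0, and 1 was added.

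The tests of log2(FPKM + 1) used limma 3.58.1 (R 4.3.3, eBayes with a trend, two-sided) and were tried on simulated data. Changes with age and the night effect over 4 ages came from a fit of age and time (3 residual degrees of freedom, 4.816 from the prior), and the night effects of younger and older glands from a fit of age with 1 night term for each stage (2 residual degrees of freedom). A gene of a list stands for its transcript with the highest mean level.

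The members and lists were chosen with earlier results of these data known. Named were all member transcripts, from each list the 3 genes of highest mean FPKM and those called at P40 against E21 or for night at P20 and P40 (up to 6), and the 5 most alike transcripts. Others were named after seeing their values, and some genes the rule would name are not reported here. Alternatives covered the pseudocount (0.1 or 5), the filter (none, or 5 FPKM), quantile normalization, median centring, robust eBayes, summing the transcripts of a symbol, night effects by stage in the age fit, only the libraries of the same 2 ages, and leaving out each library while keeping the transcripts tested. Leaving out both P5 libraries was added after seeing the data.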

Additional observations from a re-analysis of the deposited data

Results flagged for a closer look

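Among the genes quoted beside the members, 2 had night effects that differed between the younger and the older glands by a test of the difference itself in limma. For Aanat the night effect at P20 and P40 exceeded that at E21 and P5 by 6.56 on the log2(FPKM + 1) scale (adjusted p = 0.00208). For Sostdc1, a choroid plexus marker, it was lower by 1.83 in the older glands (-1.83, adjusted p = 0.0474), with 14.8 FPKM by day and 65.7 FPKM by night at P5. Sostdc1 passed the filter only through the E21 mid-night library and both P5 libraries, so its call is not independent of the filter. Over the 9 choroid plexus markers the median of this difference was -1.24. Their night level at P5 was 2.27 (Aqp1) to 6.00 (Ttr) times the day level. Of all transcripts 0.753% were called for this difference.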

How the results depend on the processing

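The calls for Hr (P5 and P40 against E21) and for Klf9 and Thrb (P40 against E21) held in every alternative that gave a value, and Dio2 was higher at night at P20 and P40 in all 17. Thrb passed the filter only through both P40 libraries, and Dio2 only through the P20 and P40 mid-night libraries. Neither the Thrb call nor the Dio2 call is independent of the filter. For each of the values below the cause was not tested. Members called higher at night at P20 and P40 numbered 0 with a pseudocount of 5, no filter, a filter of 5 FPKM (Dio2 is then not tested) and robust eBayes. Members called lower at P40 against E21 numbered 0 with a filter of 5 FPKM and median centring, 2 with night effects by stage, and 0 to 1 without single libraries. Members called higher at P40 against E21 then numbered 3 to 4, and for the difference of night effects 0 to 1. With quantile normalization or median centring 2 members were called higher at P5, and with median centring 1 was called higher at P20 against P5 (Klf9). Median centring takes out the median change of all transcripts (-0.18 for P40 against E21, -0.11 for night at P20 and P40), and gave 2175 transcripts higher and 2004 lower at P40 against E21 (1602 and 2674 without it) and 390 and 121 for night (279 and 158); quantile normalization gave 317 and 119 for night. At P20 against P5, 102 higher and 597 lower became 173 and 325 with median centring and 219 and 313 with quantile normalization, and the difference of night effects went from 61 and 14 to 95 and 9 with median centring. Of all transcripts, those called moved as follows. With a pseudocount of 0.1, 1 was called at P40 against P20. At P20 against P5, 699 became 397 with a pseudocount of 5, 373 with no filter, 372 at 5 FPKM and 1258 with night effects by stage. At 5 FPKM 2322 were called for age and 2838 for P40 against E21. For night at P20 and P40, 437 became 105 with no filter, 273 with only the same 2 ages and 266 without both P5 libraries. For night at E21 and P5, 3 became 1 with quantile normalization and 0 with a pseudocount of 5, no filter, 5 FPKM, median centring or no P5 library. For the difference of night effects, 75 became 37 with a pseudocount of 5, 0 with no filter and 9 without both P5 libraries. Leaving out single libraries gave 2369 to 3347 for age, 484 to 1422 for P5 against E21, 50 to 725 for P20 against P5, 2333 to 4253 for P40 against E21, 150 to 267 for night at P20 and P40, 0 to 2 for night at E21 and P5, and 6 to 64 for the difference. Uncalled values changed sign: Dio2 at P5 against E21 (-0.166 with quantile normalization, -1.18 to 1.30 without single libraries) and at P20 against P5 (-0.0459 to 1.94), and Dio2 for night at E21 and P5 (-0.000217 with quantile normalization, -0.124 without both P5 libraries, -0.124 to 0.248 without single libraries). So did Hr for night at E21 and P5 (0.245 without both P5 libraries, -0.324 to 0.245) and at P20 and P40 (-0.178 to 0.316), Klf9 (-0.0421 to 0.0869) and Opn1sw (-0.323 to 0.700) at night in the older glands. Without a library, the other library of that age is assumed to vary like the rest. With transcripts summed, Thra is 1 value and gives none for either transcript. No paired analysis was possible because the labels number no replicates, with 1 library in every group.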
